A study of Mus musculus with 8 samples.

Results

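Interferons act through surface receptors, kinases and transcription factors, and 9 genes of that apparatus were followed in CD11b+ cells enriched from mouse brain: the type I receptor chains *Ifnar1* and *Ifnar2*, the type II receptor chains *Ifngr1* and *Ifngr2*, the signal transducer *Stat2*, and the interferon regulatory factors *Irf1*, *Irf3*, *Irf7* and *Irf9*. They were chosen by name from the 20308 genes in the count files, and all 9 were among the 13407 genes that passed edgeR's filter on low counts. The libraries came from 4 control and 4 CSF1 OE mice, all of them offspring of a C57Bl/6 by CD1 cross and 14 or 15 days old, with 1 library per mouse. CSF1 OE mice carry a TRE/tTA transgene from which a subset of GFAP+ cells makes the secreted form of CSF1, a growth factor that acts on microglia. The captured CD11b+ cells thus met the ligand rather than being the intended site of the transgene. CD11b-conjugated magnetic beads were used on the right hemisphere after PBS perfusion and removal of myelin with Percoll. The labels do not give which mice were 14 and which were 15 days old, nor the litter. The p-values set differences against the spread between mice and take the mice as independent, which could not be checked for litter.

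Type I interferons bind a receptor made of IFNAR1 and IFNAR2, whose kinases JAK1 and TYK2 lead to ISGF3, a complex that holds STAT2 and IRF9 and binds ISRE elements of interferon-stimulated genes. Interferon gamma, the type II interferon, binds IFNGR1 and IFNGR2, whose kinases JAK1 and JAK2 lead to STAT dimers at GAS elements, with *Irf1* as an early target. IRF3 and IRF7 act upstream, as the factors that switch on the type I interferon genes when a cell senses nucleic acid, and *Irf7* is itself an interferon-stimulated gene, whereas *Irf3* is made constitutively. Here *Ifnar1*, *Ifnar2*, *Stat2*, *Irf9*, *Irf3* and *Irf7* were counted as the type I branch and *Ifngr1*, *Ifngr2* and *Irf1* as the type II branch, although type I interferon also induces *Irf1*.

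The libraries held from 12053259 to 15475465 counts, and CPM, the counts scaled to library size, were taken on TMM-normalized sizes. Differences were tested by the quasi-likelihood method of edgeR, and a gene was called where its Benjamini-Hochberg adjusted p was under 0.05 and its fold change was under 0.7 or above about the reciprocal of 0.7. By that rule 0.44% of the genes tested were called, 0.388% higher and 0.0522% lower in CSF1 OE mice, and the median log2 fold change over all genes tested was -0.03. A positive log2 fold change means a higher level in CSF1 OE mice. The 12 microglial and myeloid marker genes, among them *P2ry12*, *Tmem119* and *Csf1r*, were all detected, with a summed level of 23409 to 41100 CPM in the controls against 30126 to 42516 CPM in the CSF1 OE mice. Control mouse 1934 had the lowest sum of the 8, and also the lowest values of 5 of the 9 genes followed here. Mouse 1934 and CSF1 OE mouse 2019 lay at opposite ends of the first principal component, which held 49.8% of the variance. *Csf1* ran from 139 to 364 CPM in the controls against from 167 to 400 CPM in the CSF1 OE mice, and the genotypes overlapped.

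None of the 9 genes was called by edgeR, beside 0.44% of all genes tested. Of the 9, 4 (*Irf7*, *Irf9*, *Irf1* and *Stat2*) had an unadjusted p under 0.05, a level that 16.5% of the genes tested reached. *Irf7* had about 4 times its control level in CSF1 OE mice and *Irf9* about 1.6 times, and these were the only members of the 9 in which every CSF1 OE mouse lay above every control mouse. Over all genes tested, the genotypes did not overlap in 10.3%, with every CSF1 OE mouse above in 6.84% and below in 3.45%. The 4 receptor chains differed little, with log2 fold changes from -0.04 to 0.19. The study chose both *Irf7* and *Irf9* as differentially expressed on these samples, so that these values are not independent of that choice. In RNA from a pool of cells, more cells that express a gene and more RNA per cell cannot be told apart.

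**Figure D1:**
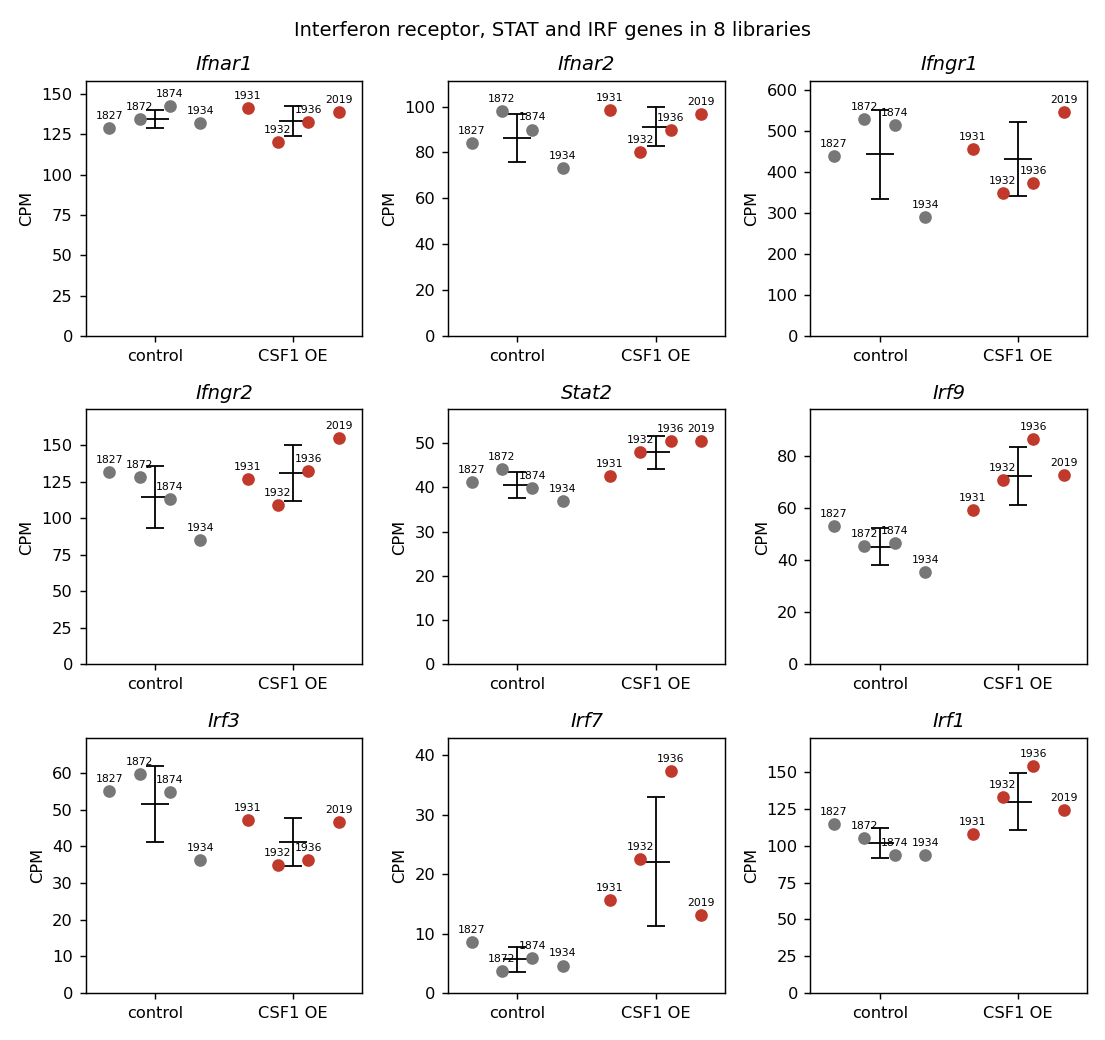
CPM of each of the 9 genes (vertical axes, starting at 0) in each mouse, with grey points for the 4 control and red points for the 4 CSF1 OE mice, mouse numbers beside the points, and the mean and SD as black bars. The red points lie above all grey points for *Irf7* and *Irf9*, and the genotypes overlap for the other 7 genes.

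Promoter sequences bear on this comparison because the 2 branches end at different DNA elements. RefSeq windows on GRCm38.p6, from 250 bases before to 50 bases after an annotated start, were found for all 9 genes, with 2 starts each for *Irf1* and *Irf9*. They were searched on both strands for the ISRE core (GAAA, any 2 bases, GAAA) and for the GAS motif TTCNNNGAA, which reads the same on both strands. Of 32851 windows over all genes, 3.44% held the first and 8.3% held the second. Among the 9 genes the ISRE core was found only in the window of *Stat2* and the GAS motif in those of *Irf1*, *Ifnar1* and *Ifnar2*. The 250 bases before the start are shown for *Irf7*, the gene with the largest difference, for *Stat2* and for *Irf1* (5′ to 3′ on the strand of the gene, matches in capitals). *Irf7* is at chr7:141266425-141266674 on the minus strand, *Stat2* at chr10:128270248-128270497 and *Irf1* at chr11:53769764-53770013, both on the plus strand.
Irf7: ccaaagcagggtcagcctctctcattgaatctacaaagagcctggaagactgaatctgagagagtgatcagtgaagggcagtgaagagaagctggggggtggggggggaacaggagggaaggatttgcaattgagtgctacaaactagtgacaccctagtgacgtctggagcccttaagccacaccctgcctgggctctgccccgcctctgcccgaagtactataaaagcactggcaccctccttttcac
Stat2: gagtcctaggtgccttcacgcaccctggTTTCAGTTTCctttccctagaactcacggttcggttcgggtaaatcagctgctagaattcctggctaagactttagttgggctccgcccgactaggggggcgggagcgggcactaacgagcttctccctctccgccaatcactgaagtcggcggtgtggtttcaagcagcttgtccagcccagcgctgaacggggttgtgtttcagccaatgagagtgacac
Irf1: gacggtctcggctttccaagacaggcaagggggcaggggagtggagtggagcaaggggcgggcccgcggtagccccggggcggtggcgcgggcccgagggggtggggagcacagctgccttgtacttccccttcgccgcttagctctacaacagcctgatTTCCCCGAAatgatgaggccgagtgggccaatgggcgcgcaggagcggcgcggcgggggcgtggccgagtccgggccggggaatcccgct
The capitals in *Stat2* are the ISRE core on the minus strand, from -222 to -213 with the start base counted as 0. Those in *Irf1* are the GAS match TTCCCCGAA from -90 to -82. The *Ifnar2* match was TTCCTGGAA, from -214 to -206. In *Ifnar1* the match TTCACGGAA lay across the start itself, from -5 to 3. *Irf7* and *Irf9*, whose values separated the genotypes, held neither set of letters in these windows, which says nothing of other spacings or of sites outside them.

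Among the receptor genes, *Ifnar1* encodes the chain of the type I receptor that TYK2 binds. It had 129, 134, 142 and 132 CPM in control mice 1827, 1872, 1874 and 1934. CSF1 OE mice 1931, 1932, 1936 and 2019 had 141, 120, 133 and 139 CPM. The highest value was in a control and the lowest in a CSF1 OE mouse, and the means were 134 ± 5.65 and 133 ± 9.41 CPM (SD, n = 4 each). The log2 fold change was -0.01 with a 95% interval from -0.19 to 0.16, which lies inside the fold thresholds. *Ifnar2* encodes the high-affinity chain, and had 84.1, 97.9, 90.0 and 73.2 CPM in the same control mice and 98.6, 80.1, 89.6 and 96.7 CPM in the same CSF1 OE mice. The genotypes overlapped across most of their range, with a log2 fold change of 0.08 and an interval from -0.16 to 0.32.

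*Ifngr1*, the ligand-binding chain of the interferon gamma receptor, had 437, 528, 514 and 289 CPM in controls against 456, 349, 373 and 546 CPM in the CSF1 OE mice. It varied more between mice of a genotype than the type I chains did, from its lowest value in control mouse 1934 to its highest in CSF1 OE mouse 2019. Its log2 fold change was -0.04, with an interval from -0.51 to 0.44. The same 2 mice had the lowest and the highest sum of microglial markers, and *Ifngr1* was from 1.07% to 1.44% of that sum in control and from 1.14% to 1.33% in CSF1 OE mice. What part the share of microglia has in the spread of *Ifngr1* was not tested. *Ifngr2*, the chain that brings JAK2, had 131, 128, 113 and 85.3 CPM in the controls against 127, 109, 132 and 155 CPM in the CSF1 OE mice. Here too mouse 1934 was lowest and mouse 2019 highest, and the log2 fold change was 0.19 with an interval from -0.16 to 0.54.

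The animal numbers were split into a range from 1931 to 1936, with 1 control and 3 CSF1 OE mice, and a set of 4 other animals. The other set has 3 control mice (1827, 1872 and 1874) and 1 CSF1 OE mouse (2019). Its numbers lie on both sides of the range, so that it is no range of its own. The labels call neither set a batch. Within both sets *Ifngr1* was higher in CSF1 OE, by 0.43 and 0.15 on the log2 scale, although the pooled difference was -0.04. *Ifngr2* was also higher within both, by 0.52 and 0.32. When the range was a term of the model, *Ifngr2* had a log2 fold change of 0.42 (edgeR, adjusted p = 0.0378), which is within the fold limits, and *Ifngr1* one of 0.29 (adjusted p = 0.169 from edgeR). Each set has 1 mouse in an arm, control mouse 1934 in the first and CSF1 OE mouse 2019 in the other. These mice lay at the ends of the first principal component, and all values by set or with the range term rest on them.

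*Ifnar2*, *Ifnar1* and *Ifngr2* lie in 1 cluster on chromosome 16 together with *Il10rb*, a chain shared by the receptors of interleukin 10 and of the type III interferons. On GRCm38 (GENCODE M21) the cluster runs from 91372783 to 91565623, in the order *Ifnar2*, *Il10rb*, *Ifnar1* and *Ifngr2*, a span of 193 kb. *Il10rb* had 106 ± 23.3 CPM in the controls against 106 ± 20.7 CPM in the CSF1 OE mice (n = 4 each), a log2 fold change of -0.01 (95% interval from -0.42 to 0.40). None of the 4 neighbours was called by edgeR, beside 0.44% of all genes tested. *Ifnlr1*, the other chain of the type III receptor, had from 2 to 9 counts in a library and was not tested.

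**Figure D2:**
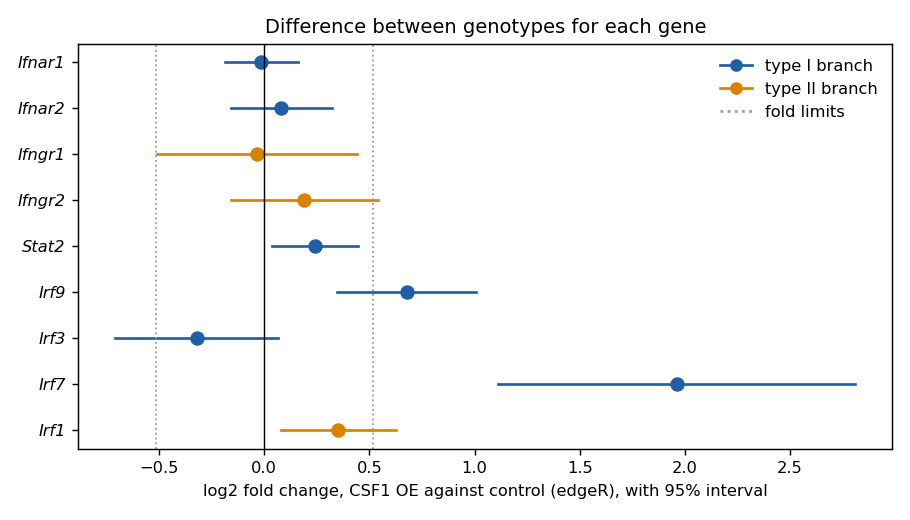
The log2 fold change of each gene from edgeR (points) with its 95% interval (lines), type I branch in blue and type II branch in orange, and the fold thresholds as dotted lines. The intervals of *Irf7*, *Irf9*, *Irf1* and *Stat2* lie above 0, and those of the 4 receptor chains and of *Irf3* include 0.

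Downstream of the type I receptor, *Irf9* encodes the DNA-binding part of ISGF3. It had 53.0, 45.6, 46.7 and 35.6 CPM in the controls against 59.1, 70.8, 86.4 and 72.7 CPM in the CSF1 OE mice. The lowest CSF1 OE value, in mouse 1931, was above the highest control value, in mouse 1827. The means were 45.2 ± 7.20 and 72.3 ± 11.2 CPM (n = 4 each), for a log2 fold change of 0.68 (standard error 0.15; edgeR, adjusted p = 0.0724). *Irf9* was called with the animal-number range in the model (log2 fold change 0.80, adjusted p = 0.0267) and with the Wald test of DESeq2 (adjusted p = 0.00129), and its adjusted p ran from 0.00129 to 0.215 over 16 alternatives. Without mouse 1934 the log2 fold change of *Irf9* was 0.59 (edgeR, adjusted p = 0.0961) and without mouse 2019 it was 0.67 (edgeR, adjusted p = 0.104). DESeq2 called 3.28% of the genes it tested, and the model with the range 9.5%.

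*Stat2* encodes the signal transducer that is particular to the type I and type III pathways, and had 41.1, 44.2, 39.9 and 36.9 CPM in the controls against 42.5, 48.0, 50.4 and 50.5 CPM in the CSF1 OE mice. Only mouse 1931 among the CSF1 OE mice fell within the control range. *Stat2* differed by 0.24 on the log2 scale (standard error 0.09, unadjusted p = 0.0268, adjusted p = 0.241 from edgeR), and it was positive under all 16 alternatives, from 0.21 to 0.31. Both components of ISGF3 followed here thus had higher means in CSF1 OE mice, by different amounts. Per kb of merged exons, the level of *Irf9* over that of *Stat2* was 1.23 ± 0.159 in control and 1.66 ± 0.159 in CSF1 OE mice (n = 4 each), and the ratios of the genotypes did not overlap.

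*Irf7* had 8.60, 3.73, 5.82 and 4.61 CPM in the controls against 15.6, 22.5, 37.4 and 13.1 CPM in the CSF1 OE mice, from 54 to 548 counts in a library. CSF1 OE mouse 1936 stood highest and mouse 2019 lowest of its genotype, still above control mouse 1827, the highest control. The means were 5.69 ± 2.12 and 22.1 ± 10.9 CPM (n = 4 each). The log2 fold change was 1.96 (standard error 0.38, 95% interval from 1.11 to 2.81), with an unadjusted p of 0.000538 and an adjusted p of 0.0558 from edgeR, just outside the threshold. Within the sets of animal numbers, each with 1 mouse in an arm, the difference was 2.32 and 1.17. *Irf7* was called in 5 of 16 alternatives: with DESeq2 (adjusted p = 2.19e-05), with limma on the deposited normalized values (adjusted p = 0.0487), with the range term (log2 fold change 1.76, adjusted p = 0.0419 from edgeR), without control mouse 1827 and without CSF1 OE mouse 2019. Over all genes, limma called 0.776%, edgeR without mouse 1827 called 1.21% and edgeR without mouse 2019 called 0.521%. Without any 1 mouse its log2 fold change stayed between 1.59 and 2.23, with adjusted p from 0.0463 to 0.186 (edgeR), the value without mouse 1934 being 0.0961.

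*Irf3*, the constitutive partner of *Irf7* in the induction of interferon genes, had 55.0, 59.8, 54.8 and 36.3 CPM in the controls against 47.1, 34.9, 36.2 and 46.6 CPM in the CSF1 OE mice. It was the member with the most negative log2 fold change, -0.32 (standard error 0.17, adjusted p = 0.387 from edgeR), and control mouse 1934 lay among the CSF1 OE values. Within the sets of animal numbers, each with 1 mouse in an arm, the difference was 0.11 in the first, where mouse 1934 is the control, and -0.28 in the other. With the range in the model the log2 fold change of *Irf3* was -0.08. Per kb of merged exons, the level of *Irf7* over that of *Irf3* was from 0.0570 to 0.142 in control mice and from 0.256 to 0.941 in CSF1 OE mice. In mouse 1936 *Irf7* was thus close to the level of *Irf3*, and in control mouse 1872 it was lowest against it.

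*Irf1*, the first interferon regulatory factor described and an early target of interferon gamma, had 115, 105, 93.4 and 93.7 CPM in the controls against 108, 133, 154 and 124 CPM in the CSF1 OE mice. Of the CSF1 OE mice, mouse 1931 lay within the control range and the other 3 above it. *Irf1* differed by 0.35 on the log2 scale (standard error 0.12, unadjusted p = 0.0174, adjusted p = 0.205 from edgeR) and was positive under all 16 alternatives, from 0.26 to 0.43. CSF1 OE mouse 1936 had the highest value of the 8 for *Irf1*, *Irf7* and *Irf9*. Per kb, *Irf7* over *Irf1* was 0.0584 ± 0.0178 in control and 0.174 ± 0.0604 in CSF1 OE mice (n = 4 each), without overlap.

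Some annotated exons are shared with a neighbour, and the library kit does not mark strand. *Irf7* shares 45 bases with *Phrf1* and *Irf3* shares 88 with *Bcl2l12*, both on the other strand, and *Irf9* shares 123 with *Rnf31* on the same strand. *Ifnar2* shares 315 bases with *Gm21970* on the same strand and *Irf1* shares 135 with *Gm17334* on the other, neither of which is compared here. *Phrf1* had a log2 fold change of -0.25, *Bcl2l12* of -0.06 and *Rnf31* of -0.03 (adjusted p = 0.255, 0.902 and 0.918 from edgeR), and each had the lower mean in CSF1 OE mice.

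**Figure D3:**
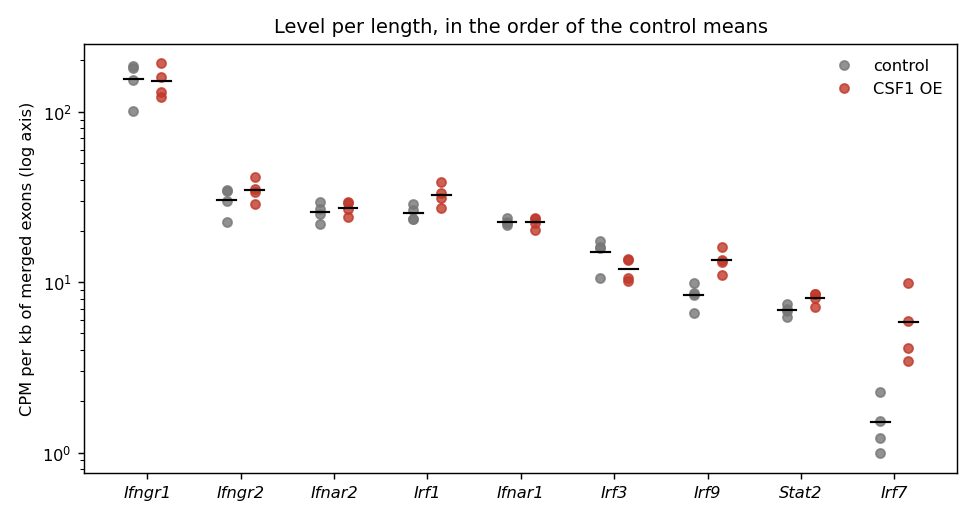
CPM per kb of merged exons on a log axis for the 9 genes in the order of their control means, with grey points for control mice, red points for CSF1 OE mice and black lines for means. *Ifngr1* stands above all other genes in both genotypes, and *Irf7* is last in both.

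Levels of different genes were compared per kb of merged exons. *Ifngr1* was the most abundant, at 155 ± 38.4 CPM per kb in control and 151 ± 31.4 in CSF1 OE mice (n = 4 each), above 98.5% of the genes tested in control mice. *Ifngr2* (30.4), *Ifnar2* (25.9), *Irf1* (25.6) and *Ifnar1* (22.6 CPM per kb in control) followed, each overlapping its neighbour in this order. Below them came *Irf3* (14.95), *Irf9* (8.40), *Stat2* (6.84) and *Irf7* (1.51), of which *Irf9* and *Stat2* overlapped and the others did not. In CSF1 OE mice *Irf1*, at 32.7 CPM per kb, stood before *Ifnar2* and *Irf9*, at 13.4, before *Irf3*, at 11.98, but in each of these pairs the values overlapped. *Irf7* was at 5.86 CPM per kb and overlapped *Stat2*, at 8.08. The order depends on the length used: per kb of the longest coding transcript *Irf1* ranked 2 and *Ifngr2* ranked 4 in control mice, while *Ifngr1* stayed first and *Irf7* last.

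The summed level of the 2 type II chains per kb was 3.79 ± 0.660 times that of the 2 type I chains in control and 3.72 ± 0.498 times in CSF1 OE mice (n = 4 each). The 2 genotypes overlapped, and the lowest ratio, 2.81, was that of control mouse 1934. Within the type II receptor, *Ifngr1* was 5.09 ± 0.777 times *Ifngr2* in control and 4.35 ± 0.465 times in CSF1 OE mice. Within the type I receptor, *Ifnar2* was 1.15 ± 0.128 and 1.22 ± 0.0284 times *Ifnar1*. That order depends on the length used. Per kb of the longest coding transcript *Ifnar1* had the higher mean, 34.4 against 28.3 CPM per kb for *Ifnar2* in control mice. In CSF1 OE mice the means on that length were 34.1 for *Ifnar1* and 29.96 for *Ifnar2*. All of these ratios between receptor chains overlapped between the genotypes.

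**Figure D4:**
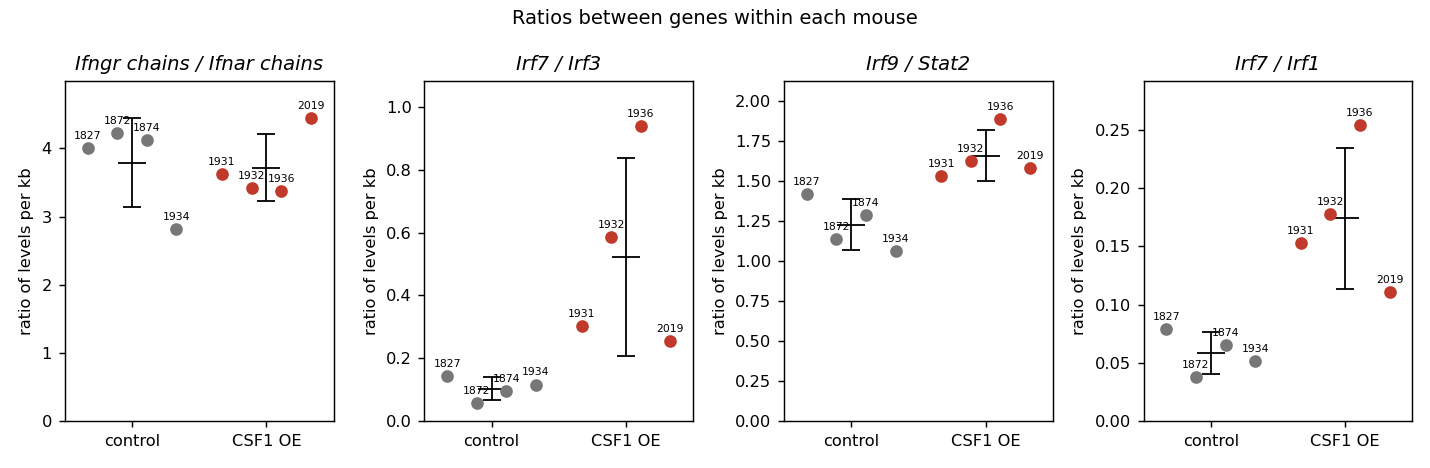
Ratios of levels per kb within each mouse (vertical axes, starting at 0) for the summed type II over type I receptor chains, *Irf7* over *Irf3*, *Irf9* over *Stat2* and *Irf7* over *Irf1*, with means and SD as black bars. The receptor ratio overlaps between the genotypes, and the other 3 ratios are higher in every CSF1 OE mouse. Each of these 3 has *Irf7* or *Irf9* as its numerator, genes whose own values do not overlap, so the ratios are no separate result.

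Taken by branch, the 6 type I genes had a median log2 fold change of 0.16 and the 3 type II genes one of 0.19. The mean log2 CPM of the type I genes, relative to the control mean, ran from -0.24 to 0.16 in control and from 0.36 to 0.60 in CSF1 OE mice. That of the type II genes ran from -0.36 to 0.18 and from 0.01 to 0.36. The type I mean rests on *Irf7*: without it, a choice made after its values were seen, the genotypes overlapped, at -0.24 to 0.12 and 0.02 to 0.22. The difference between the branches within a mouse was from -0.17 to 0.13 in control and from 0.03 to 0.39 in CSF1 OE mice. Mice 1931, 1932 and 1936 lay above every control and mouse 2019 lay within the control range, and the difference between the branches was not tested. Of the 4 receptor chains 0, and of the 5 transcription factor genes 4, had an unadjusted p under 0.05, a level that 16.5% of all genes tested reached. The difference between these counts was not tested.

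The interferon genes themselves were at or near 0 in these libraries. Of 19 ligand genes in the files, 15 had a count of 0 in every library, which allows at most 0.266 CPM in the shallowest, and none was tested. *Ifnb1*, which encodes interferon beta, had 5, 0, 1 and 2 counts in the control and 4, 8, 7 and 1 in the CSF1 OE mice. *Ifnz* had 4 counts in 1 control and 2 in 1 CSF1 OE mouse. *Ifna2* and *Ifng*, the gene of interferon gamma, had 1 count each, both in CSF1 OE mouse 1932. Interferon made by cells outside the capture would not be seen here. Markers of T, NK and B cells, which can make interferon gamma, summed to between 0.532 and 1.45 CPM in the controls against between 1.54 and 2.57 CPM in the CSF1 OE mice, with only 1 of 9 genes reaching 10 counts in any library. That gene was *Klrb1c*, an NK cell receptor, with 4 to 25 counts and a log2 fold change of 1.53. It was higher in every CSF1 OE mouse, as were 6.84% of all genes tested. Its values, 0.269 to 0.680 CPM in controls and 0.955 to 2.05 CPM in CSF1 OE mice, are part of the sums above. The NK cell genes *Ncr1* and *Nkg7* had 0 counts and from 0 to 1 count in a library. The T cell receptor complex gene *Cd3e* had from 0 to 1 count. Markers of plasmacytoid dendritic cells, a source of type I interferon, summed to between 40.2 and 72.4 CPM and between 33.1 and 43.8 CPM, with 2 of 6 reaching 10 counts. Nearly all of that sum was *Pacsin1*, which neurons also express, at 38.3 to 71.3 CPM in controls and 31.7 to 42.5 CPM in CSF1 OE mice, while none of the other 5 genes exceeded 1.40 CPM in a library. What part such cells have in the values of *Irf7* and *Irf9* was not tested.

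The kinases that the receptors use showed little difference. *Jak1* had 266 ± 30.1 and 288 ± 19.7 CPM in control and CSF1 OE mice (n = 4 each), a log2 fold change of 0.12. *Tyk2* had one of 0.15, *Jak2* of -0.03 and *Jak3*, which serves cytokine receptors with the common gamma chain, of -0.16. Among other STAT genes, the log2 fold change was 0.07 for *Stat3*, 0.36 for *Stat5a*, -0.17 for *Stat5b* and -0.05 for *Stat6* (adjusted p from edgeR of 0.812, 0.309, 0.597 and 0.888). *Stat5a*, a transducer of growth factor and cytokine receptors, had 20.1, 19.6, 18.4 and 12.6 CPM in the controls against 21.2, 20.8, 22.2 and 26.8 CPM in the CSF1 OE mice, which did not overlap.

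Of the 8 other IRF genes and IRF2-binding protein genes, all were tested, and 3 had higher and 5 lower means in CSF1 OE mice. Over all genes tested, 44.8% had higher means. None of the 8 was called by edgeR or DESeq2, beside 0.44% and 3.28% of all genes. Their median log2 fold change was -0.06, and 2 had an unadjusted p under 0.05, beside 16.5% of all genes. *Irf8*, which microglia need for their identity, had 319 ± 72.0 CPM in the controls against 331 ± 61.5 CPM in the CSF1 OE mice (n = 4 each). *Irf5*, a factor of inflammatory gene induction, had 210 ± 43.1 and 242 ± 63.5 CPM, and *Irf2*, an antagonist of *Irf1*, had 90.0 ± 10.1 and 84.5 ± 16.9 CPM. *Irf4*, a factor of alternative activation, had a log2 fold change of -0.72 (edgeR, adjusted p = 0.279), and control mouse 1874 lay among the CSF1 OE mice.

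Of 15 genes of kinases and adaptors that act on IRF3 and IRF7, all tested, 12 had higher means in CSF1 OE mice and 3 lower, and their median log2 fold change was 0.08. Over all genes tested, 44.8% had higher means. None of the 15 was called by edgeR or DESeq2, beside 0.44% and 3.28% of all genes. An unadjusted p under 0.05 was found for 4, beside 16.5% of all genes. *Tbk1*, the kinase of IRF3, had 99.3 ± 6.61 CPM in the controls against 105 ± 6.997 CPM in the CSF1 OE mice (n = 4 each). The largest differences were those of *Ticam1*, the adaptor TRIF, at 0.36, and of *Tbkbp1*, a TBK1-binding protein, at -0.39 (adjusted p = 0.468 and 0.163 from edgeR). With the range term 2 of the 15 were called, beside 9.5% of all genes.

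Of 14 negative regulators, all tested, 4 had higher and 10 lower means in CSF1 OE mice, and the median log2 fold change was -0.09. Over all genes tested, 44.8% had higher means. edgeR called none (0.44% of all genes), and 3 had an unadjusted p under 0.05, beside 16.5% of all genes. DESeq2 called *Usp18* alone (beside 3.28% of all genes) and limma called 1 gene (beside 0.776%). The model with the range called 2, of which 1 was lower, beside 9.5% of all genes. *Usp18*, a protease that restrains the type I receptor through IFNAR2 and is itself induced by interferon, had the largest difference of the list, 2.08 (adjusted p = 0.0558 from edgeR). The most negative was *Cish*, a SOCS family member, at -0.57 (adjusted p = 0.353 from edgeR). *Socs1*, the principal inhibitor of interferon gamma signalling, had 7 to 28 counts in a library and a log2 fold change of 0.31 with a standard error of 0.44.

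Target genes were listed by branch, with the caveat that most respond to both interferons. The lists were written with earlier results of these data known, and the study reports *Oas* family genes as upregulated in these samples. The counts below are therefore not independent of that knowledge. Of 22 genes listed as ISGF3 targets 21 were tested, and all 21 had higher means in CSF1 OE mice, 15 of them without overlap. Over all genes tested, 44.8% had higher means and 10.3% did not overlap. The ISGF3 targets had a median log2 fold change of 1.45, and 3 were called by edgeR and 15 by DESeq2, against 0.44% and 3.28% of all genes. The 3 were *Ifit1*, an inhibitor of viral RNA translation (log2 fold change 1.85), *Isg15*, a ubiquitin-like modifier (1.85), and *Dhx58*, the RNA sensor LGP2 (1.45), with adjusted p of 0.0398, 0.0431 and 0.0365 from edgeR. Of 28 genes listed as interferon gamma and *Irf1* targets 24 were tested, with 16 higher and 8 lower, 7 without overlap and a median of 0.37. None of these was called by edgeR, 13 had an unadjusted p under 0.05 (16.5% of all genes did), and DESeq2 called 9, of which 2 were lower.

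Within the interferon gamma list, the MHC class II chain genes *H2-Aa*, *H2-Ab1* and *H2-Eb1*, the invariant chain gene *Cd74* and the class II activator gene *Ciita* were set apart after their values were seen. The 4 of these 5 that were tested all had lower means, with a median log2 fold change of -1.55, while 16 of the other 20 had higher means, with a median of 0.45. The lowest was *H2-Eb1*, an MHC class II chain, at -2.58 (adjusted p = 0.0690 from edgeR). The highest was *Ccl5*, a chemokine, at 2.43 (adjusted p = 0.0753 from edgeR). *Ciita* was at 0.661 ± 0.343 CPM in the controls against 0.284 ± 0.195 CPM in the CSF1 OE mice (n = 4 each) and was not tested. Border macrophages, which carry class II, had 8 of 8 markers with lower means in CSF1 OE mice, beside 7405 of the 13407 genes tested. The sum of these macrophage markers was from 1561 to 2485 CPM in the controls against from 1254 to 1880 CPM in the CSF1 OE mice. Their part in the class II values was not tested.

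**Figure D5:**
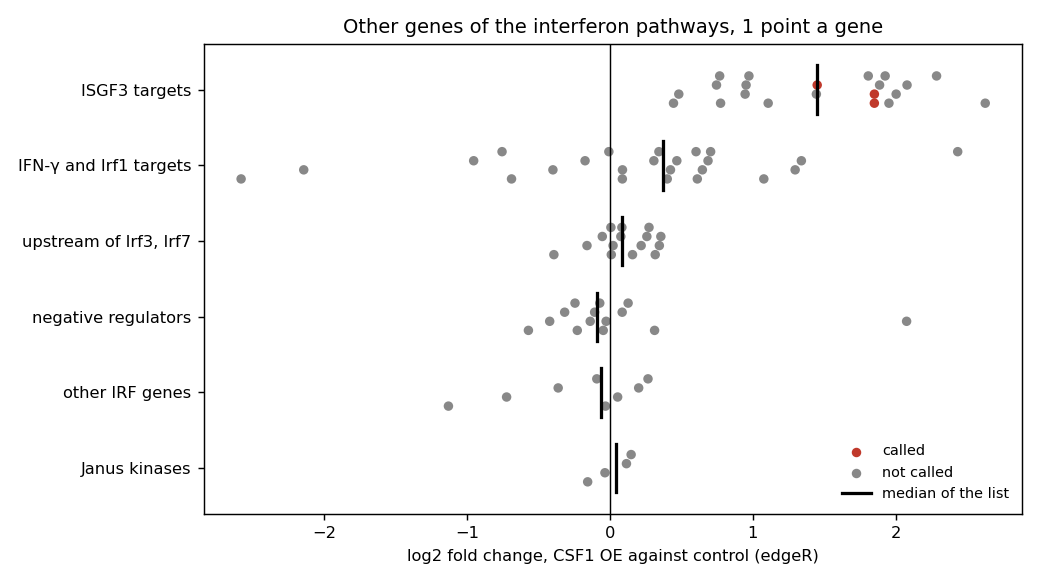
The log2 fold change of every tested gene (1 point a gene, red where called by edgeR) in 6 lists of interferon pathway genes, with the median of each list as a black line. The ISGF3 targets lie to the right of 0 with a median of 1.45, and the medians of the kinases, adaptors, regulators and other IRF genes lie between -0.09 and 0.08.

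The genes with the pattern most like those of *Irf7* and *Irf1*, the members with the lowest p of each branch, were sought among all genes tested by the root mean square difference between log2 CPM values centred on the 8 libraries. For *Irf7*, which ranged over 3.27 on that scale, the nearest were *Rtp4* (0.134), *Usp18* (0.204), *Oasl2* (0.220), *Zbp1* (0.259) and *Ifit3* (0.273). For *Irf1*, which ranged over 0.723, the nearest were *Irgm1* (0.0557), *Ddx60* (0.0823), *Dsn1* (0.0846), *Slfn3* (0.0950) and *Cox7a2l* (0.0965). All 8 libraries enter each value, the genotype difference included, so that genes with a like fold change are favoured.

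Markers of other brain cells were present in all libraries. Endothelial markers summed to 697 to 1218 CPM in the controls against 338 to 825 CPM in the CSF1 OE mice, oligodendrocyte lineage markers to 2640 to 5605 and 1442 to 4608 CPM, astrocyte markers to 548 to 956 and 416 to 1023 CPM, and neuronal markers to 88.7 to 347 and 43.8 to 206 CPM. All 8 endothelial markers had lower means in CSF1 OE mice, with a median log2 fold change of -0.68. Over all genes tested, 7405 of 13407 had lower means. None of the 8 markers was called by edgeR (0.44% of all genes were), and 3 had an unadjusted p under 0.05 (16.5% of all genes did). DESeq2 called *Ly6c1* (beside 3.28% of all genes), and the model with the range called 7 of the endothelial markers (beside 9.5%). Their part in the values of the 9 genes was not tested. Monocyte and neutrophil markers summed to 50.7 to 104 and 34.6 to 208 CPM. All 8 or 7 genes detected in each of these lists reached 10 counts in some library. Against the microglial sum, *Irf9* was from 0.111% to 0.152% in control and from 0.171% to 0.287% in CSF1 OE mice. *Irf7* was from 0.00909% to 0.0211% and from 0.0308% to 0.124%, and neither gene overlapped between the genotypes. *Irf3* was from 0.135% to 0.155% and from 0.110% to 0.138%, with overlap. The markers in that sum had log2 fold changes from -0.63 (*Fcrls*) to 0.60 (*Aif1*). What part the share of microglia has in the values of these 3 genes was not tested.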

How the data were processed

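Each of 8 mice, 4 control and 4 CSF1 OE, gave 1 RNA library of CD11b+ cells. Per the labels and the methods, the authors mapped paired-end reads to mm10 with Bowtie 1.0.0 and deposited expected counts per gene from RSEM 1.2.7, without normalization (annotation and strand setting are not given in the sources used here). The authors also deposited a normalized signal, the expected counts divided by 1 size factor per mouse. Groups were taken from the strain labels.

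Expected counts were rounded, and edgeR 4.0.16 was run in R 4.3.3 (TMM, filterByExpr, glmQLFTest), with Benjamini-Hochberg adjustment over all genes tested. A 95% interval is the log2 fold change with its standard error and edgeR's degrees of freedom. Log2 CPM used a prior count of 2. The alternatives were DESeq2 1.42.0, limma 3.58.1 on the normalized signal with a pseudocount of 1, other factors, filters and thresholds, a robust prior, a term for animal numbers and each mouse left out. Scripts were tested on simulated data. Merged exon lengths are from GENCODE M21, and promoters from RefSeq. The floor of a count of 0 was taken as 3 counts and covers counting error only. No 2 libraries were copies (chi-square per gene from 14.7 to 88.2 over 28 pairs).

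The 9 genes and the lists were chosen with earlier results of these data known. In each list the called genes, or else those with the largest difference in each direction, were named, except in those of other STAT and other IRF genes, where some results are not reported here. Other genes were named for their role or after their values were seen. Lists were described by counts and medians, with no set test. The study's EBSeq calls entered no test or count here, and those of *Irf7* and *Irf9* were only mentioned.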

Additional observations from a re-analysis of the deposited data

How the results depend on the processing

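No member was called by edgeR with all 8 mice, 4 had an unadjusted p under 0.05, and the number called was 2 with DESeq2 (*Irf7* and *Irf9*), 1 with limma on the deposited normalized values (*Irf7*), 2 with the term for animal numbers (*Irf7* and *Irf9*) and between 0 and 1 with each mouse left out (*Irf7* without control mouse 1827 or CSF1 OE mouse 2019). It stayed at 0 with upper-quartile factors, the deposited size factors, either other filter, a robust prior, no fold threshold, glmTreat and an adjusted p under 0.01. With the term for animal numbers the log2 fold changes of *Ifnar1* and *Ifngr1* turned from -0.01 and -0.04 to 0.0138 and 0.29. With a mouse left out they ran from -0.0415 to 0.0344 and from -0.18 to 0.0617. The cause was not tested. The other 7 genes kept their direction in all 16 alternatives. The median log2 fold change ran from 0.11 to 0.22 for the type I and from 0.09 to 0.27 for the type II branch with each mouse left out, the lowest of each without control mouse 1934 (0.10 for type II without CSF1 OE mouse 2019), and was 0.25 and 0.37 with the term for animal numbers, which rests on mice 1934 and 2019. It was 0.08 for the type I branch without *Irf7*, an alternative chosen after seeing the data. Over all genes the number called was 59, and from 3 to 1273 over the alternatives, so that a call near the threshold depends on the fit. No paired analysis was possible because the mice of the genotypes share no replicate number.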
